A study of Mus musculus with 62 samples.

Results

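Trim72 and 8 other genes of muscle membrane repair were followed in the tibialis anterior, a fast-twitch muscle of the lower hind limb, while cachexia developed in mice carrying melanoma. Cachexia is a loss of skeletal muscle and body fat seen with many tumours. The 9 genes were Trim72, Dysf, Cav3, Anxa1, Anxa2, Anxa5, Anxa6, Ahnak and Myof, all found among the 47643 gene symbols of the expression table. They were chosen by name for their known roles, with the higher Trim72 level of cachectic mice at 2 weeks already known. The values of Trim72 at that week are therefore a description and carry no test.

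Muscle fibres tear during contraction, and calcium entering through the tear starts the repair. Trim72 (also called MG53) is a muscle ubiquitin ligase that tethers vesicles to the tear and oligomerises when the cytoplasm is oxidised. Dysferlin, the product of Dysf, is a calcium-binding ferlin that works with it in vesicle fusion, and its loss causes a muscular dystrophy in humans. Caveolin-3, encoded by Cav3, is the scaffold of muscle caveolae and binds both proteins. Annexins bind phospholipids in the presence of calcium and form a cap over the tear. Ahnak is a very large scaffold protein that binds dysferlin and the annexin A2 complex with S100A10, and Myof encodes myoferlin, a second ferlin, best known from myoblast fusion.

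Female mice had been injected with melanoma cells that cause cachexia (CAC) or with melanoma cells that do not (NCAC). Others had a mock injection (Con, here called mock), and muscle of all was taken 2, 4, 6 or 8 weeks later. Each of these 12 groups held 5 libraries, apart from CAC at 8 weeks with 7, so that 22 CAC libraries stood beside 40 others. The design text of the series names NCI Ath/nude mice, an athymic strain, whereas the sample labels give C57BL6/J, and which applies could not be settled. The labels give an age of 2 months at every week, without saying whether at injection or at collection. The melanoma lines are not named, and the same mock groups serve both comparisons. The labels' protocols call the libraries biological replicates without saying more of their origin, so p-values measure the spread between these libraries.

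Values are TPM, a transcript abundance scaled for transcript length whose sum is 1000000 in each library. Because of that fixed total, a gene can gain TPM when abundant transcripts lose theirs. The mitochondrially encoded genes held 48.8% ± 7.07 of all TPM in mock muscle at 8 weeks (SD, n = 5) and 37.7% ± 2.43 in CAC muscle (SD, n = 7). The median log2 difference of all 11107 genes tested between CAC and mock muscle was 0.13, 0.11, 0.38 and 0.46 at 2, 4, 6 and 8 weeks. Each result is therefore given as deposited and again after rescaling every library by a median-of-ratios size factor (0.61 to 1.46), which brought these medians to between 0.00 and 0.01. A set of 3 CAC libraries (replicates 1 and 6 at 8 weeks and replicate 1 at 6 weeks) lay at the end of the first principal component, which held 49.7% of the variance. The sum of 6 muscle fibre markers lay between 54711 and 106024 TPM in every group, whereas 4 melanocyte markers summed to at most 1.01 TPM. Reads from fewer cells of a type and less RNA per cell cannot be told apart in bulk muscle.

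Trim72 lies on chromosome 7 at 128003949 to 128011033 on the plus strand, and Cav3 on chromosome 6 at 112459505 to 112472872, also on the plus strand (GRCm38, GENCODE M21 annotation). The 250 bases before the RefSeq transcription start of each are shown because these muscle genes parted in CAC muscle, as described below. Capitals mark matches to CANNTG, the E-box bound by myogenic factors, searched on both strands. The first line is chr7:128004128-128004377 and the second is chr6:112459255-112459504, both on the plus strand of GRCm38.p6.
Trim72: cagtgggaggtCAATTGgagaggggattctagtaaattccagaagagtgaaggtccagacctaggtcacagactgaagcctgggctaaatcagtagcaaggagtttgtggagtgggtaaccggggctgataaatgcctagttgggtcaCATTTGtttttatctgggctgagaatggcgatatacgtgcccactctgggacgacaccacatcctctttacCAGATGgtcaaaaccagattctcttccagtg
Cav3: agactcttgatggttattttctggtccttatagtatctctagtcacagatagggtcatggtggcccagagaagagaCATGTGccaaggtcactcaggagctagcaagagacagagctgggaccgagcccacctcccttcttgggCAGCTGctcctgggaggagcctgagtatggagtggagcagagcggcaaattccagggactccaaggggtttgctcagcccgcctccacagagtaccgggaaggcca
The Trim72 window held 3 such matches, beginning 239, 102 and 31 bases before the start, and the Cav3 window 2, beginning 174 and 106 bases before it, a motif present in 66.2% of 32851 RefSeq promoter windows of the same length. Among the other members with a window, Anxa5 held 1 match, and no window of Anxa6 was used here. No window of a member held TTCNNNGAA, the STAT motif (7.02% of all windows), the MEF2 motif (2.92%) or a CArG box (1.47%). The Trim72 window also lies within the first intron of the longer annotated transcript, between its exons ending at 128004069 and beginning at 128004477. The antisense gene Gm15533 overlaps Trim72 but reached at most 0.113 TPM in any library.

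On the same build, Dysf lies on chromosome 6 at 84008590 to 84211060 and Anxa2 on chromosome 9 at 69453620 to 69491795, both on the plus strand. Anxa5 lies on chromosome 3 at 36448923 to 36475894 and Anxa6 on chromosome 11 at 54979108 to 55033445, both on the minus strand. Chromosome 19 holds the other 3, Ahnak at 8989284 to 9076914 on the plus strand, and Anxa1 at 20373428 to 20390944 and Myof at 37899036 to 38043577 on the minus strand. The overlapping genes found in the table reached at most 0.125 TPM (Gm16144, over Anxa2).

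Trim72 was high in CAC muscle from the earliest week and stayed high through the latest. At 2 weeks its level in the 5 CAC libraries was 146, 215, 199, 223 and 233 TPM, against 113, 112, 94.9, 109 and 78.9 TPM in mock and 98.8, 98.7, 96.4, 90.6 and 99.5 TPM in NCAC muscle. The CAC libraries lay above all others of that week, with replicate 1 the lowest of them. The mean was 203 ± 34.2 TPM in CAC and 101 ± 14.5 TPM in mock muscle (SD, n = 5 each), a 2.00-fold difference, or 1.82-fold after rescaling.

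At 4 weeks the CAC libraries stood at 195, 224, 259.6, 227 and 228 TPM and the mock libraries at 119.9, 119, 104, 125 and 94.7 TPM. At 6 weeks they stood at 274, 243, 302, 195 and 229 TPM against 109, 106, 103, 122 and 99.8 TPM. The groups did not overlap in either week. At 8 weeks the 7 CAC libraries ran from 221 to 323 TPM with a median of 265 TPM, and the mock libraries stood at 101, 162, 108, 93.7 and 71.0 TPM. Mock replicate 2 was the highest of all 40 libraries without cachectic cells, and still lay below every CAC library of its week.

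In limma's fit over all genes, the log2 difference of Trim72 between CAC and mock muscle was 1.00 at 4 weeks (SE 0.14, adjusted p = 3.28e-06), 1.18 at 6 weeks (SE 0.14, adjusted p = 3.43e-09) and 1.39 at 8 weeks (SE 0.13, adjusted p = 1.24e-12). Every CAC library lay above the mock mean in each of these weeks. After rescaling the differences were 0.88, 0.74 and 0.86, each again called at an adjusted p under 0.05 (4.83e-06, 1.05e-05 and 3.19e-08). Against NCAC muscle the log2 differences were 0.89, 1.23 and 1.25 as deposited and 0.70, 0.73 and 0.74 rescaled, with adjusted p between 2.64e-11 and 0.00032.

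Ordered by mean, the 8 groups without cachectic cells ran from NCAC at 2 weeks (96.8 ± 3.65 TPM) through mock at 2 weeks (101 ± 14.5), NCAC at 6 weeks (107 ± 22.8), mock at 8 weeks (107 ± 33.8), mock at 6 weeks (108 ± 8.70), mock at 4 weeks (113 ± 12.7) and NCAC at 8 weeks (115 ± 10.99) to NCAC at 4 weeks (122 ± 11.01, SD, n = 5 each). No neighbours in that order differed beyond their spread. The next group up was CAC at 2 weeks at 203 TPM, followed by CAC at 4 weeks (227 ± 22.8), 6 weeks (249 ± 41.0) and 8 weeks (274 ± 36.4, n = 7), and these neighbours overlapped. Of the 22 CAC libraries, 21 exceeded every one of the 40 others on both scales. The exception was CAC replicate 1 at 2 weeks (146 TPM), which lay below mock replicate 2 of 8 weeks (162 TPM). Rescaled, the same library (134) lay below 5 of the 40 others. The 22 include the CAC libraries of 2 weeks, whose high Trim72 was known beforehand. The share of all genes so separated was not counted.

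**Figure D1:**
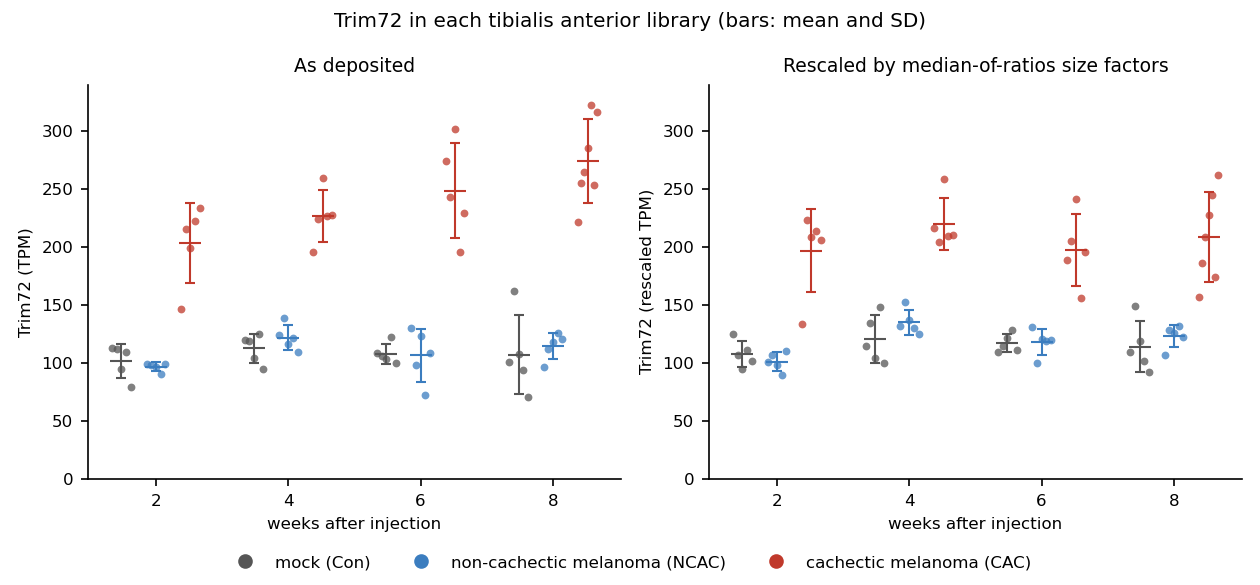
Trim72 in each library by week, as deposited (left, TPM) and rescaled (right, rescaled TPM). Points are libraries and bars the mean with SD. The CAC libraries lie between 146 and 323 TPM on the left and the others between 71.0 and 162 TPM.

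Dysf rose in CAC muscle at 6 and 8 weeks, by less than Trim72. At 8 weeks its level ran from 38.2 to 61.6 TPM with a median of 42.9 TPM in the 7 CAC libraries, against 25.0, 31.3, 22.9, 25.7 and 16.1 TPM in mock and 25.0, 23.4, 27.0, 29.1 and 25.8 TPM in NCAC muscle. The CAC group lay wholly above both. By limma the log2 difference from mock was 0.79 at 6 weeks (SE 0.17, adjusted p = 0.000132) and 0.89 at 8 weeks (SE 0.16, adjusted p = 2.87e-06). After rescaling these were 0.35 (adjusted p = 0.0267) and 0.38 (adjusted p = 0.00714).

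At 4 weeks the CAC libraries held 27.2, 40.3, 31.5, 43.5 and 29.8 TPM of Dysf and the mock libraries 26.01, 22.5, 25.7, 20.8 and 21.6 TPM, without overlap. The limma difference of 0.53 from mock missed the threshold (SE 0.17, adjusted p = 0.138, and 0.40 with adjusted p = 0.0981 rescaled), while that of 0.65 from NCAC muscle passed (adjusted p = 0.0168). The latter call was lost without CAC replicate 2 (adjusted p = 0.0935), CAC replicate 4 (adjusted p = 0.089) or NCAC replicate 3 (adjusted p = 0.0647). Against NCAC muscle after rescaling, Dysf was not called at 6 weeks (0.25, adjusted p = 0.0987) or 8 weeks (0.26, adjusted p = 0.0571).

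Myof, the other ferlin among the members, was expressed at 0.496 to 2.89 TPM throughout, far under Dysf on this length-scaled measure. At 8 weeks it stood at 2.20 ± 0.282 TPM in CAC (SD, n = 7) and 1.41 ± 0.326 TPM in mock muscle (SD, n = 5). The log2 difference was 0.41 at both 6 weeks (adjusted p = 0.00751) and 8 weeks (adjusted p = 0.00298), close to the median of all genes, and after rescaling it was 0.12 and 0.08 with no call. Against NCAC muscle it was called at both weeks as deposited (0.59 and 0.55) and at 6 weeks also rescaled (0.29, adjusted p = 0.0459), but not at 8 weeks rescaled (0.23, adjusted p = 0.0812). The pseudocount of 1 holds down log2 differences at these low levels.

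Cav3 was not called in any week. At 2 weeks it stood at 69.7, 71.5, 66.7, 68.3 and 80.2 TPM in CAC, 56.1, 48.2, 65.9, 57.3 and 44.8 TPM in mock and 57.2, 57.9, 53.6, 57.9 and 66.1 TPM in NCAC muscle. Every CAC library lay above every other one as deposited, while the groups overlapped rescaled, and limma called neither difference (log2 0.39 from mock, adjusted p = 0.567, and 0.25 rescaled, adjusted p = 0.999). At 4 weeks it stood at 69.1, 85.4, 79.8, 79.5 and 76.5 TPM in CAC muscle and at 61.4, 50.4, 65.7, 53.4 and 53.3 TPM in mock muscle, with no overlap. At 6 weeks the CAC libraries held 40.8, 64.5, 75.5, 67.7 and 65.7 TPM against 49.3, 49.6, 49.8, 52.3 and 61.1 TPM in mock muscle. At 8 weeks they ran from 25.8 to 87.1 TPM with a median of 72.0 TPM, around 61.6, 66.0, 51.6, 51.6 and 41.9 TPM in mock muscle. The CAC group of 8 weeks thus held libraries both above and below the whole mock group.

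In the later weeks the log2 difference by limma was 0.45 at 4 weeks (SE 0.18, adjusted p = 0.247), 0.23 at 6 weeks (adjusted p = 0.254) and 0.13 at 8 weeks (adjusted p = 0.5). After rescaling it was 0.33, -0.21 and -0.39, so the sign at 6 and 8 weeks depended on the scale, with a 95% confidence interval of -0.76 to -0.03 at 8 weeks before adjustment over genes (adjusted p = 0.0698). The 3 low libraries, at 40.8 TPM at 6 weeks and at 25.8 and 33.1 TPM at 8 weeks, were the same 3 that lay at the end of the first principal component. Without them Cav3 rose at all 3 weeks, by 0.45 (adjusted p = 0.00372), 0.38 (adjusted p = 0.0018) and 0.52 (adjusted p = 9.03e-06), and after rescaling by 0.33 at 4 weeks (adjusted p = 0.0313), with -0.01 and 0.04 at 6 and 8 weeks. Leaving out replicate 1 of 8 weeks alone gave 0.32 at that week (adjusted p = 0.0371), and a fit of the libraries of 4 weeks alone gave a call at 4 weeks (adjusted p = 0.0196).

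Those libraries also held the most Trim63, the muscle ubiquitin ligase MuRF1, of their groups. It stood at 4657 and 2919 TPM in replicates 1 and 6 of 8 weeks, where the other 5 libraries ran from 97.0 to 977 TPM, and at 1820 TPM in replicate 1 of 6 weeks, where the others ran from 225 to 1285 TPM. Trim63 is outside the members and lists and was added here. How many other genes were highest in these 3 libraries was not counted, and a link of Trim63 to Cav3 was not tested. Trim72 stood at 221 and 254 TPM in replicates 1 and 6 of 8 weeks, the lowest of their group, where the other 5 ran from 255 to 323 TPM, and the order was the same rescaled (157 and 174 against 186 to 262). In replicate 1 of 6 weeks it stood at 274 TPM, within the 195 to 302 TPM of the other 4.

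**Figure D2:**
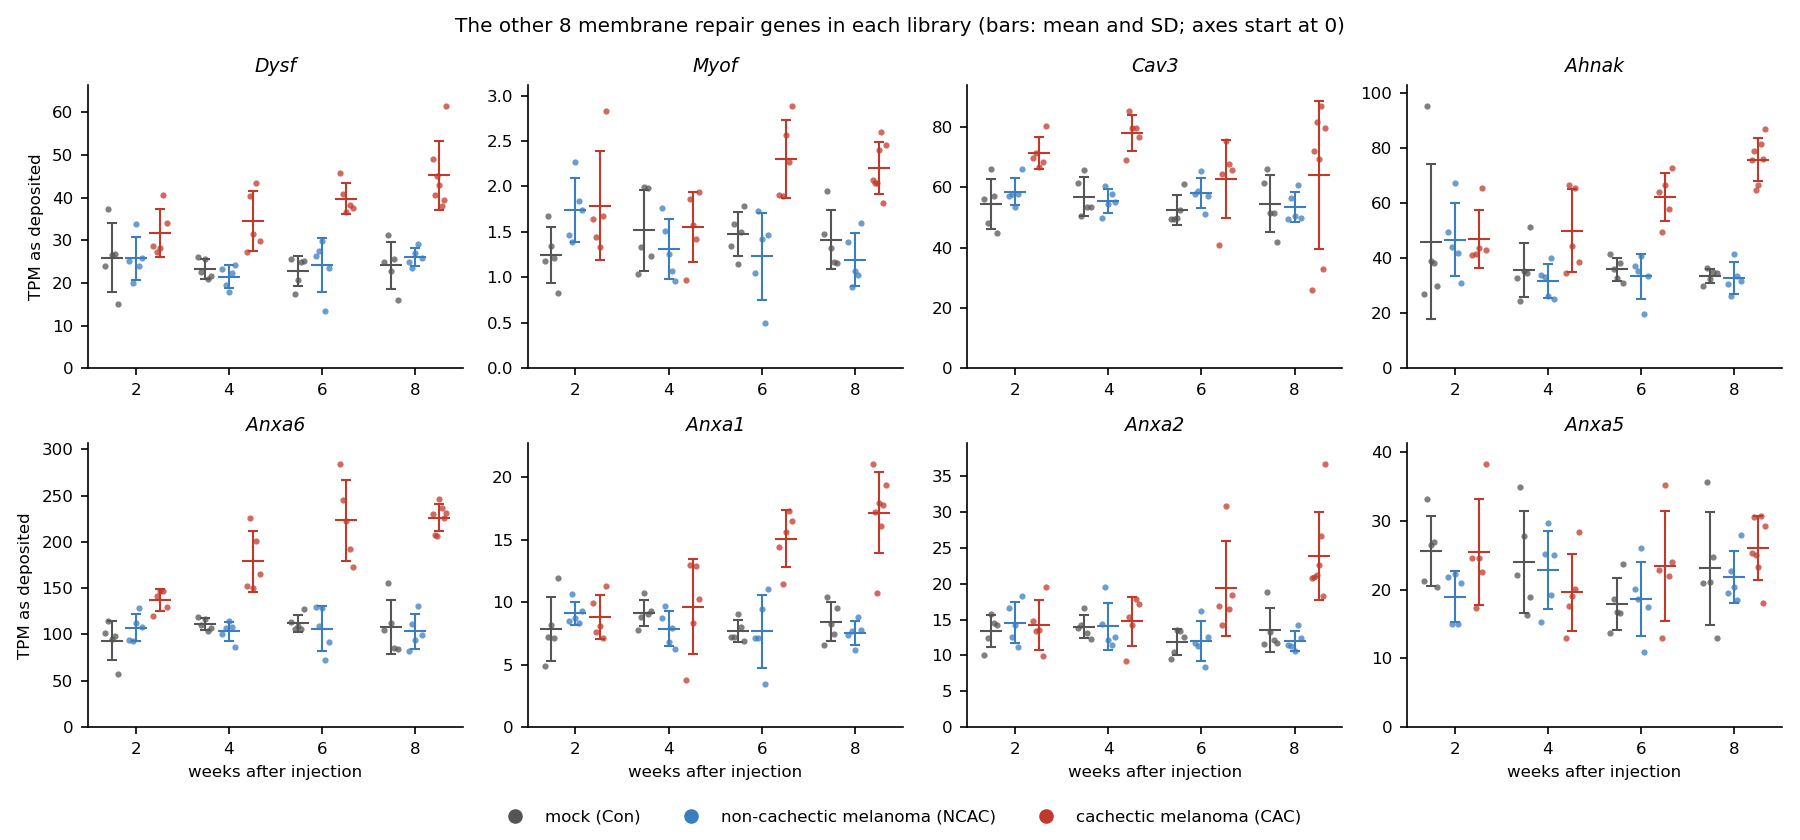
The other 8 genes in each library by week (TPM as deposited, axes from 0). Points are libraries and bars the mean with SD. Dysf, Anxa1, Anxa6 and Ahnak in CAC muscle stand apart from both other groups at 8 weeks, while Cav3 spreads from 25.8 to 87.1 TPM there.

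Of the annexins, Anxa6 was the most abundant and the one that changed earliest. Annexin A6 is the large, doubled annexin of the repair cap and a known modifier of muscular dystrophy in mice. At 2 weeks it stood at 120.0, 142, 147, 147 and 130.1 TPM in CAC muscle and at 102, 114, 94.8, 98.5 and 57.5 TPM in mock muscle. The groups did not overlap, but limma did not call the difference (log2 0.58, SE 0.15, adjusted p = 0.117).

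At 4 weeks the CAC libraries held 152, 226, 150.01, 201 and 165 TPM of Anxa6 and the mock libraries 119, 110.3, 117, 104 and 107 TPM. This difference was called (log2 0.66, SE 0.15, adjusted p = 0.0107, and 0.53 with adjusted p = 0.00859 rescaled), though as deposited not without CAC replicate 2 (adjusted p = 0.116) or CAC replicate 4 (adjusted p = 0.0701). At 6 weeks the log2 difference was 0.97 (adjusted p = 1.07e-06) and at 8 weeks 1.09 (SE 0.14, adjusted p = 4.44e-09). The CAC libraries of 8 weeks ran from 206 to 246 TPM, above mock libraries of 105, 156, 113, 84.9 and 83.9 TPM. Rescaled, the differences were 0.52 and 0.56 (adjusted p = 0.000629 and 3.71e-05).

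Anxa1, whose product is also known as an anti-inflammatory mediator, rose at 6 and 8 weeks and was not called at 2 or 4 weeks. At 4 weeks the CAC libraries (3.75, 12.97, 8.36, 12.9 and 10.3 TPM) spanned the mock libraries (7.79, 8.85, 10.7, 9.03 and 9.27 TPM). At 6 weeks they held 14.4, 11.5, 15.6, 17.3 and 16.5 TPM against 7.19, 7.19, 9.06, 8.01 and 6.89 TPM, and at 8 weeks from 10.8 to 21.1 TPM with a median of 17.8 TPM against 6.58, 10.42, 8.27, 7.43 and 9.52 TPM. Neither later week overlapped. The log2 difference was 0.88 at 6 weeks (SE 0.20, adjusted p = 0.000248) and 0.94 at 8 weeks (SE 0.19, adjusted p = 1.87e-05), or 0.47 (adjusted p = 0.0452) and 0.45 (adjusted p = 0.0299) rescaled. The rescaled call at 8 weeks was lost without the 3 outlying libraries (adjusted p = 0.0804).

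Anxa2, which pairs with S100A10 at membranes, stood at 20.8, 20.9, 21.2, 22.7, 26.7, 18.2 and 36.7 TPM in CAC muscle at 8 weeks and at 11.5, 18.9, 13.3, 12.1 and 11.7 TPM in mock muscle. Replicate 6 of CAC lay below mock replicate 2. The difference was called at 6 weeks (0.62, adjusted p = 0.00274) and 8 weeks (0.77, SE 0.17, adjusted p = 5.88e-05) as deposited, and not after rescaling (0.19, adjusted p = 0.392, and 0.27, adjusted p = 0.16). Without the 3 outlying libraries the rescaled difference at 8 weeks was called (0.41, adjusted p = 0.0469). Against NCAC muscle at 8 weeks it was called on both scales (0.91, adjusted p = 5.07e-06, and 0.43, adjusted p = 0.0241).

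Anxa5, the annexin used as a probe of dying cells and known to form arrays at tears, was not called in CAC muscle in any week. It stood at 26.1 ± 4.61 TPM in CAC (SD, n = 7) and 23.1 ± 8.20 TPM in mock muscle at 8 weeks (SD, n = 5), and the groups overlapped in every week. The log2 difference at 8 weeks was 0.22 as deposited (95% confidence interval -0.20 to 0.63) and -0.29 rescaled (-0.66 to 0.09), so a change of either sign within these bounds is not excluded. Only without CAC replicate 2 was it called at 6 weeks (0.52, adjusted p = 0.0452).

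Ahnak rose in CAC muscle at 6 and 8 weeks. At 8 weeks it ran from 64.9 to 87.1 TPM with a median of 76.0 TPM, against 29.9, 36.4, 32.4, 35.2 and 34.7 TPM in mock muscle, so that the lowest CAC library exceeded the highest mock library. Its log2 difference was 0.77 at 6 weeks (SE 0.21, adjusted p = 0.00159) and 1.14 at 8 weeks (SE 0.19, adjusted p = 1.62e-06). Rescaled, that at 8 weeks was 0.62 (adjusted p = 0.00213) and that at 6 weeks, 0.33, was not called (adjusted p = 0.149). In mock muscle at 2 weeks, replicate 2 held 95.6 TPM of Ahnak, the highest value of all 62 libraries. The other 4 of that group held 27.0, 39.0, 38.4 and 29.9 TPM. Replicate 2 also held 194 TPM of albumin, and a link to its Ahnak level was not tested.

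Members of the set, Anxa1, Anxa2, Ahnak and Myof among them, are also expressed outside muscle fibres, so marker levels of other cells are given here. At 8 weeks 69.4% of all tested genes were called higher as deposited, and 23.8% higher and 24.9% lower rescaled. The summed level of the 5 macrophage markers found (of 6) was 33.8 to 83.3 TPM in CAC and 13.1 to 31.8 TPM in mock muscle, and all 4 that were tested were called higher as deposited and 2 rescaled. The 6 fibroblast markers summed to 299 to 658 TPM against 206 to 371 TPM, with 2 of 6 called higher as deposited, and 1 higher and 2 lower rescaled. The 6 endothelial markers summed to 152 to 213 TPM against 89.4 to 141 TPM, with 5 called higher and 1 lower as deposited, and 2 and 1 rescaled. The 6 neutrophil markers summed to 11.6 to 54.4 TPM against 4.64 to 7.81 TPM, with 4 of them averaging under 1 TPM and both tested ones called higher as deposited and 1 rescaled. The 4 adipocyte markers summed to 9.29 to 39.1 TPM against 2.23 to 11.9 TPM, with 2 of the 3 tested called higher as deposited and 1 rescaled. Of the satellite cell, Schwann cell, regenerating fibre and muscle fibre lists, 0 to 1 marker each was called higher at 8 weeks on either scale, and 3 of the 6 muscle fibre markers were called lower rescaled. At 6 weeks the macrophage sum was 32.3 to 48.2 TPM in CAC and 8.65 to 16.0 TPM in mock muscle. None of these markers was at 0 in every library. The part of these cells in the changes of any of the 9 members was not tested.

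**Figure D3:**
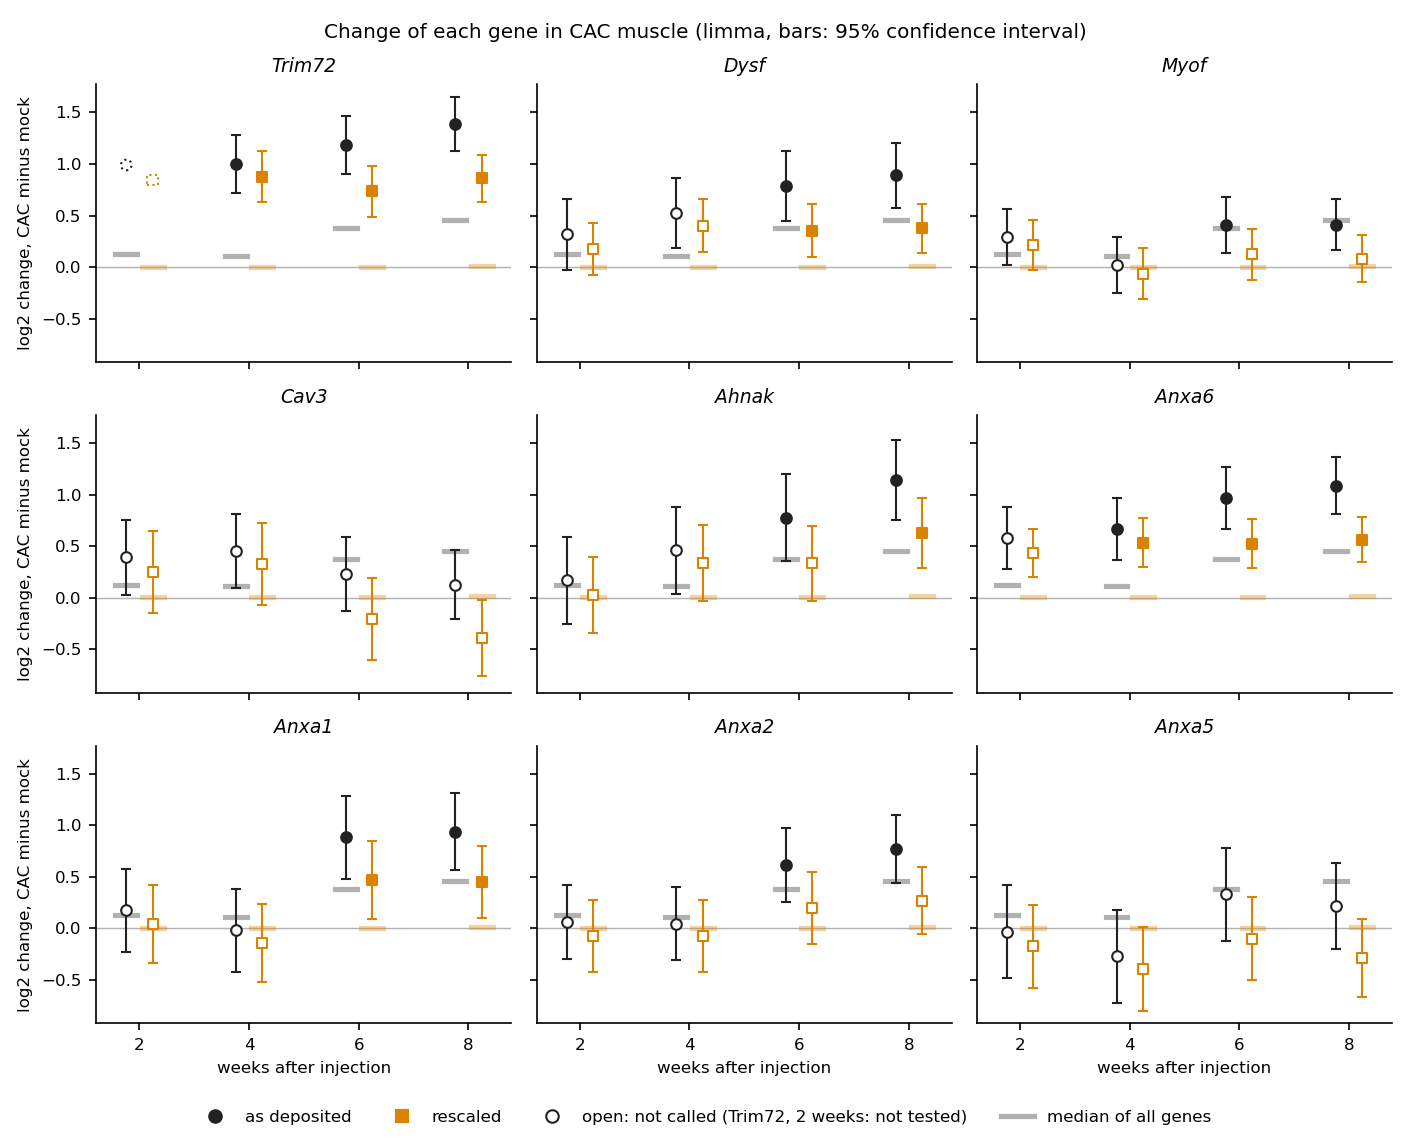
Log2 difference between CAC and mock muscle for each gene by week, as deposited (circles) and rescaled (squares), with 95% confidence intervals. Filled symbols were called, pale thick bars mark the median of all genes, and Trim72 at 2 weeks has no test. Trim72, Dysf and Anxa6 are among the genes that stay above the median line in every week on both scales.

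The members called are set here beside the share of all tested genes called in the same comparison. At 2 weeks limma called 0 of the 8 members tested higher in CAC than in mock muscle. On both scales 0.054% of all tested genes were called higher. At an unadjusted p under 0.05, 3 members were higher as deposited (Cav3, Anxa6 and Myof) and 1 rescaled (Anxa6). Those counts are at a looser threshold than the 0.054%. The numbers of all genes passing it are given below with the further genes of membrane repair. At 4 weeks 2 of 9 were called (Trim72 and Anxa6) where 0.891% of all genes were, and the same 2 after rescaling, where 0.9% were. At 6 weeks 7 of 9 were called, all but Cav3 and Anxa5, where 60.7% of all genes were, and at 8 weeks the same 7, where 69.4% were. With most genes called in these weeks, the counts as deposited say little about the members. Rescaled, 4 of 9 were called at 6 weeks (Trim72, Dysf, Anxa1 and Anxa6) against 15.5% of all genes, and 5 of 9 at 8 weeks (those and Ahnak) against 23.8%. No member was called lower in any week on either scale. Without the 3 outlying libraries 8 of 9 were called higher at 6 and at 8 weeks as deposited, and 4 and 5 rescaled. The 5 at 8 weeks then included Anxa2 and not Anxa1. The shares of all genes called without these libraries are not given here, so these counts say little about the members.

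The libraries were also compared for overlap. Every CAC library lay above every mock library for 2 of 8 members at 2 weeks (1.94% of all genes), 4 of 9 at 4 weeks (2.3%), 7 of 9 at 6 weeks (44.3%) and 5 of 9 at 8 weeks (38.0%). On the rescaled values this held for 0 of 8 (0.459%), 4 of 9 (2.06%), 4 of 9 (9.31%) and 3 of 9 (6.29%). The 4 at 4 weeks were Trim72, Dysf, Cav3 and Anxa6 on both scales, and the 3 at 8 weeks were Trim72, Anxa6 and Ahnak.

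The comparison of CAC with NCAC muscle, which share the presence of melanoma cells, is set beside the same shares. At 2 weeks limma called 0 of 8 members, where 0.063% of all genes were called higher as deposited and 0.045% rescaled. At an unadjusted p under 0.05, 1 member passed (Anxa6), and the share of all genes at that threshold is not given here. At 4 weeks 3 of 9 were called higher on both scales (Trim72, Dysf and Anxa6), where 4.68% and 2.64% of all genes were. At 6 weeks 7 of 9 were called as deposited (64.2% of all genes) and 4 rescaled (19.4%), and at 8 weeks 7 (67.0%) and 5 (23.4%). At 4 weeks Ahnak was not called against NCAC muscle (0.61, adjusted p = 0.0696) but was without CAC replicate 1 (0.73, adjusted p = 0.0242).

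No difference between NCAC and mock muscle was called in these genes. By limma 0 members were called between them in any week, with 1 at an unadjusted p under 0.05 at 2 weeks (Myof, higher in NCAC muscle) as deposited and 0 at 4, 6 and 8 weeks. Rescaled, 0 were called as well (0.207% of all genes at 2 weeks, 0.0% at 4 and 6 weeks and 0.018% at 8 weeks), with Myof higher and Anxa5 lower at an unadjusted p under 0.05 at 2 weeks and 0 in the later weeks. For Anxa5 every NCAC library then lay below every mock library on the rescaled values, with a ratio of means of 0.732. Over all genes 0.162% were called at 2 weeks, 0.0% at 4 and at 6 weeks (143 and 118 genes at an unadjusted p under 0.05) and 0.009% at 8 weeks. For Trim72 the 95% confidence interval of the log2 difference was -0.17 to 0.40 at 4 weeks, -0.33 to 0.24 at 6 weeks and -0.14 to 0.42 at 8 weeks.

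Whether a difference grew with time was tested as a difference of differences. Between 4 and 8 weeks the gap between CAC and mock muscle widened for Anxa1 by 0.96 (SE 0.27, adjusted p = 0.0107) and for Anxa2 by 0.72 (SE 0.24, adjusted p = 0.0245), while 30.4% of all genes were called in that direction. Rescaled, neither was called (0.59, adjusted p = 0.164, and 0.35, adjusted p = 0.403). As deposited, both calls were lost without CAC replicate 1 of 4 weeks (adjusted p = 0.0504 and 0.0844), and that of Anxa2 also without mock replicate 3 of 4 weeks (adjusted p = 0.0504) or mock replicate 5 of 8 weeks (adjusted p = 0.0544). Anxa6 (0.43, adjusted p = 0.0948) and Ahnak (0.68, adjusted p = 0.0598) were not called, but were with 1 library left out, Anxa6 without mock replicate 2 of 8 weeks (adjusted p = 0.0245) or CAC replicate 2 of 4 weeks (adjusted p = 0.0461), and Ahnak without any of 4 libraries, of which CAC replicate 2 of 4 weeks gave the smallest adjusted p (0.0305). Between 4 and 6 weeks 0 members were called as deposited, where 0.882% of all genes were called higher. At an unadjusted p under 0.05, 3 members passed (Anxa1, Anxa2 and Myof), and the share of all genes at that threshold is not given here. For Trim72 the change from 4 to 8 weeks was 0.38 (adjusted p = 0.107) as deposited and -0.01 rescaled (95% confidence interval -0.35 to 0.32). It was called as deposited without mock replicate 2 of 8 weeks (0.55, adjusted p = 0.0174).

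A ratio of 2 genes within a library does not depend on how the library is scaled, apart from the pseudocount of 1 added to each TPM. The log2 ratio of Trim72 to Cav3 averaged 1.52 ± 0.113 in CAC and 0.97 ± 0.248 in mock muscle at 4 weeks (SD, n = 5 each), 1.98 ± 0.448 and 1.03 ± 0.196 at 6 weeks, and 2.19 ± 0.551 (n = 7) and 0.93 ± 0.242 at 8 weeks. The groups did not overlap in any of these weeks, against either mock or NCAC muscle, and each of these 6 comparisons passed an exact two-sided permutation test (adjusted p = 0.0176 over 20 ratio comparisons). The unadjusted p was the smallest that these designs allow, 0.00794 for 5 against 5 and 0.00253 for 7 against 5 libraries. The widest ratios were those of the 3 libraries with low Cav3. Trim72 was chosen with its high level at 2 weeks known, and how many other genes part from it in this way was not counted. The calls therefore do not single out Cav3, nor do those below single out Dysf.

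The log2 ratio of Trim72 to Dysf was also higher in CAC muscle, by 0.48, 0.39 and 0.50 against mock muscle at 4, 6 and 8 weeks (exact permutation test, adjusted p = 0.0488, 0.0397 and 0.0202), with overlap in each week. Against NCAC muscle the differences were 0.24, 0.49 and 0.49 (exact permutation test, adjusted p = 0.192, 0.0289 and 0.0176). The calls at 4 and 6 weeks did not hold throughout: without CAC replicate 3 of the respective week the adjusted exact p was 0.0907 at 4 weeks and 0.068 at 6 weeks against mock and 0.0529 at 6 weeks against NCAC muscle. With a pseudocount of 0.1 both calls against mock muscle were lost as well (adjusted exact p = 0.0611 and 0.0529). The log2 ratio of Anxa2 to Anxa6 was lower in CAC muscle at 4 weeks, at -3.52 ± 0.311 against -2.91 ± 0.117 in mock and -2.81 ± 0.315 in NCAC muscle (SD, n = 5 each, exact permutation test, adjusted p = 0.0176 for both). At 2, 6 and 8 weeks it was not called (differences of -0.52 to -0.23, adjusted exact p from 0.0866 to 0.238), though without CAC replicate 7 it was at 8 weeks (-0.42 against mock and -0.33 against NCAC muscle, adjusted exact p = 0.0176 and 0.0216).

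**Figure D4:**
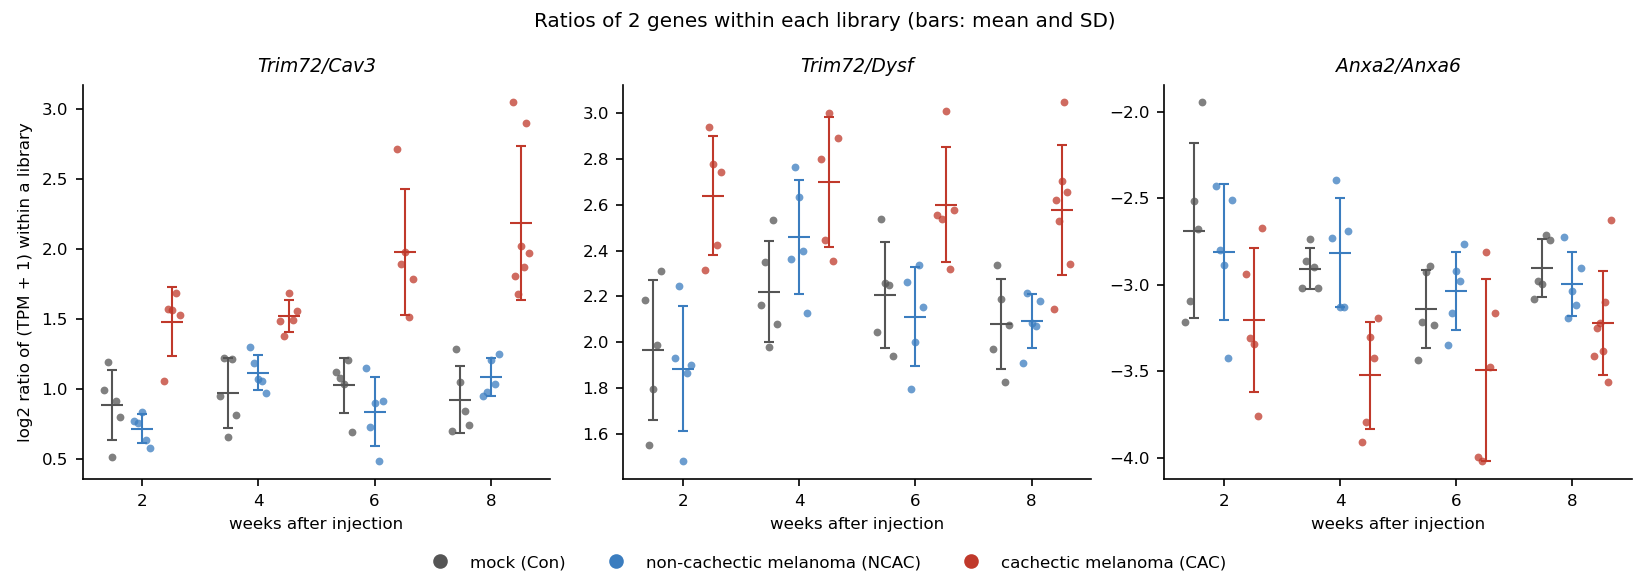
Log2 ratio of 2 genes within each library by week, for Trim72 to Cav3, Trim72 to Dysf and Anxa2 to Anxa6. Points are libraries and bars the mean with SD. In the left panel the CAC libraries of 4, 6 and 8 weeks lie above all mock and NCAC libraries of the same week.

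The genes whose pattern was most like that of Trim72 were ranked by Pearson's r over the 12 group means of rescaled log2 values. The ranking held 6868 genes whose mean TPM was 5 or more, without symbols of predicted genes, clones or pseudogenes. The groups share the contrast of CAC with the rest, so high values are common, and r is given as a description. The 5 highest were Naprt (0.93), an enzyme of NAD synthesis, Stat3 (0.93), the transcription factor of interleukin-6 family signalling, Fam63a (0.92), a deubiquitinase also named Mindy1, Gigyf1 (0.92), which represses translation with an eIF4E homologue, and Smarcd1 (0.92), a subunit of SWI/SNF chromatin remodellers. Of the members, Anxa6 ranked 14th with 0.91 and Dysf 65th with 0.85, while Cav3 (-0.05) and Anxa5 (-0.45) did not follow Trim72. As deposited, Cav3 reached 0.68 and Anxa5 0.36 on the same measure, and the 5 genes ranked highest were Eif4e, Gba2, Clec16a, Stat3 and Mapt (0.97 to 0.98).

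The 9 lists held 63 further genes of membrane repair found in the table, of which 53 passed the filter on low values and none of the 4 other ferlins did. At 2 and 4 weeks limma called 0 of the 53 in either direction, on either scale. At an unadjusted p under 0.05, 6 were higher at 2 weeks as deposited and 0 rescaled, where 954 and 519 of all 11107 genes passed in either direction. At 4 weeks 11 were higher and 1 lower as deposited, and 6 and 3 rescaled, where 1575 and 1661 genes passed. At 6 weeks 39 were called higher and 1 lower as deposited, and 13 and 10 rescaled. Of all genes, 60.7% were called higher at 6 weeks as deposited and 15.5% rescaled. The shares of all genes called lower at 6 weeks are not given here, so the 1 and 10 lower say little about these lists. At 8 weeks 41 were called higher and 0 lower as deposited, where 69.4% of all genes were called higher and 5.09% lower, with a median log2 difference of 0.61 beside 0.46 over all genes. Rescaled, 20 were called higher and 11 lower, where 23.8% of all genes were called higher and 24.9% lower. The rescaled median was 0.12 beside 0.01 over all genes. With most genes called at 6 and 8 weeks, the counts as deposited say little about these lists. The genes called lower are named below after their values were seen, apart from Vamp3.

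Among the other annexins, all 4 tested were called higher at 8 weeks as deposited and 3 rescaled. Anxa4 stood at 14.1 ± 3.61 TPM in CAC (SD, n = 7) and 4.53 ± 1.23 TPM in mock muscle (SD, n = 5), with a log2 difference of 1.44 (adjusted p = 3.37e-10) and 0.97 rescaled (adjusted p = 2.72e-07). Anxa7, an annexin of muscle that binds at tears, differed by 1.23 (adjusted p = 2.79e-07) and 0.72 rescaled (adjusted p = 0.00029), and Anxa11 by 0.89 and 0.37. Anxa3 differed by 0.58 as deposited and was not called rescaled (0.12, adjusted p = 0.45).

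The S100 proteins that bind annexins followed in part. Of 6 tested, 4 were called higher as deposited and 3 rescaled, with 1 lower (S100a1, -0.63, adjusted p = 0.000169). S100a10, the partner of annexin A2, stood at 47.8 ± 8.94 TPM in CAC (SD, n = 7) and 20.6 ± 2.28 TPM in mock muscle (SD, n = 5), a log2 difference of 1.16 (adjusted p = 1.38e-07) and 0.65 rescaled (adjusted p = 0.00405). S100a11, which binds annexin A1, differed by 1.06 and 0.54, and S100a13 by 1.05 and 0.54, all called on both scales. S100a6 differed by 0.73 as deposited and by 0.21 rescaled, where it was not called.

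Of 12 caveolar genes tested, 9 were called higher as deposited and 0 lower, and rescaled 5 were called higher and 3 lower, with a rescaled median of -0.001. The 9 higher as deposited and the 3 lower rescaled are near the shares of all genes, 69.4% and 24.9%. The 5 higher rescaled stand beside 23.8% of all genes. Ehd3, an ATPase of membrane tubules, differed most, from 2.20 ± 0.372 TPM in mock (SD, n = 5) to 10.5 ± 2.99 TPM in CAC muscle (SD, n = 7), by 1.80 (adjusted p = 6.61e-12) and 1.35 rescaled (adjusted p = 4.82e-10). Prkcdbp, the gene of cavin-3, differed by 1.48 and 0.97, and Cav1 and Cav2, the caveolins found mostly outside muscle fibres, by 0.77 and 0.76 as deposited and 0.24 and 0.25 rescaled, all called. The 3 lower ones rescaled were Sdpr, the gene of cavin-2 (-0.60), Murc, that of the muscle cavin-4 (-0.47), and Pacsin2, a membrane-bending protein of caveolae (-0.42), with adjusted p from 9.2e-05 to 0.00256. As deposited Murc stood at a log2 difference of 0.05 (adjusted p = 0.783).

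The remaining lists had rescaled medians of 0.10 (ESCRT), 0.09 (calpains), -0.10 (vesicle fusion), -0.20 (cytoskeleton and membrane shaping) and 0.23 (Trim72 targets), beside 0.01 over all genes. All 9 genes of the ESCRT machinery, which sheds damaged membrane, were called higher as deposited by 0.44 to 0.70, and rescaled only Vps4a (0.18, adjusted p = 0.0356) and Vps4b (0.14, adjusted p = 0.0185), its ATPases, were. Of the calpain system, the calcium-activated proteases, 4 of 5 were called higher as deposited, and rescaled Capn2 was called higher (0.51, adjusted p = 8.32e-07) and Capn3, the muscle calpain, lower (-0.40, adjusted p = 0.012). Of 7 genes of vesicle fusion, 6 were called higher as deposited, and rescaled Stx2 (0.28) and Vamp2 (0.25) were called higher and 3 genes lower, namely Vamp3 (-0.19, adjusted p = 0.0104), Snap23 (-0.25) and Smpd1, the acid sphingomyelinase (-0.48). Of 7 genes of cytoskeleton and membrane shaping, Myh9, the non-muscle myosin heavy chain (1.22 and 0.72 rescaled), Actn4 (1.02 and 0.51) and Dnm2 (0.67 and 0.17) were called higher on both scales, and Bin1 (-0.50), which shapes T-tubules, and Pfn1 (-0.48) lower rescaled. Of the 3 reported ubiquitination targets of Trim72, Ptk2, which encodes focal adhesion kinase, was called higher on both scales (0.72 and 0.23), the insulin receptor Insr as deposited only (0.76 and 0.25, adjusted p = 0.173 rescaled), and Irs1 was called lower rescaled only (-1.02, adjusted p = 0.0011).

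**Figure D5:**
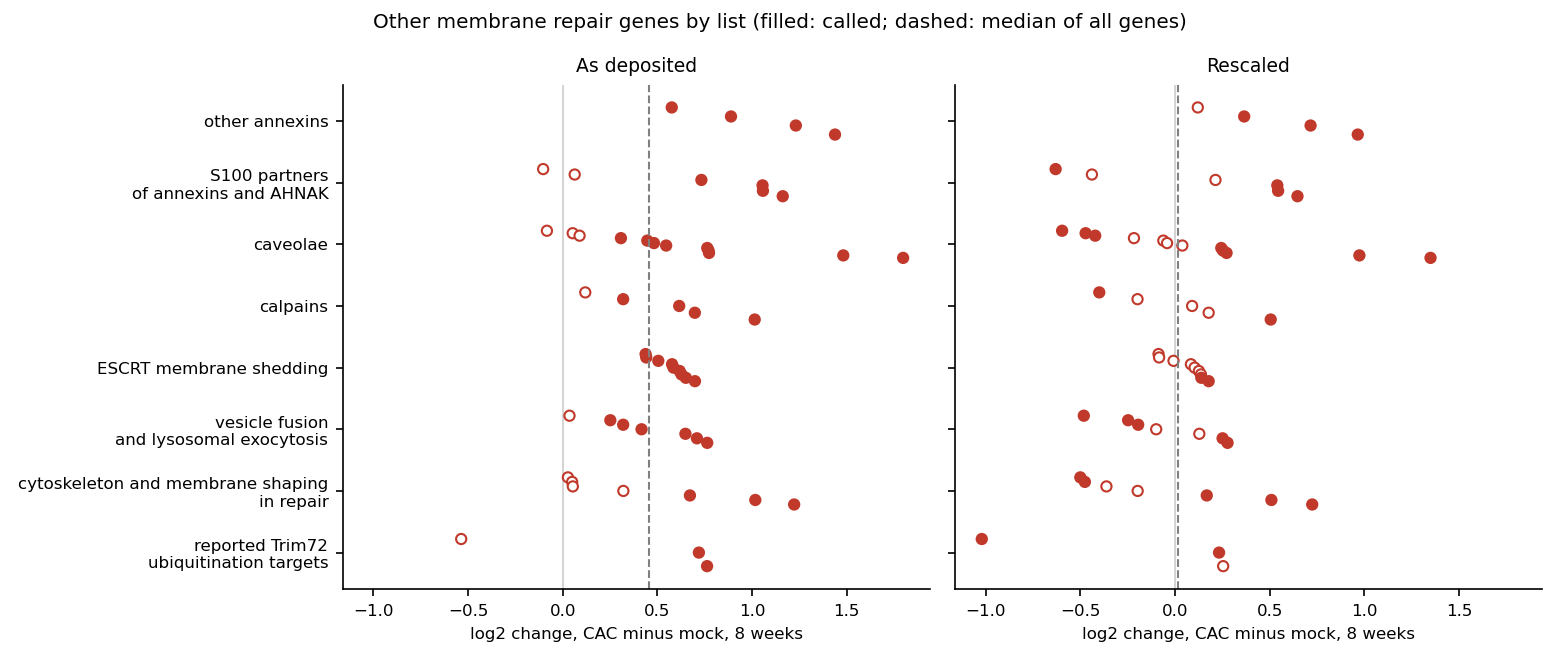
Log2 difference between CAC and mock muscle at 8 weeks for 53 further membrane repair genes by list, as deposited (left) and rescaled (right). Each point is a gene, filled where called, and the dashed line is the median of all genes. Rescaling moves most points by about the distance between the dashed lines, and Ehd3, at 1.80 and 1.35, lies farthest right on both.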

How the data were processed

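Per the labels' protocols, the 62 muscles were sequenced as TruSeq stranded mRNA libraries. What the authors deposited is 1 table with a TPM value for each gene symbol and library, each column summing to 1000000, made on genome build mm10 per the submitters' processing notes. The aligner, the counter and the annotation were not given in the sources used here. TPM keeps no read depth, so no counting interval is given. Columns were assigned through the sample titles (0 unmatched), and no 2 libraries were identical.

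Values were transformed as log2(TPM + 1), which understates changes at low levels. The filter kept genes whose mean TPM was 1 or more (11107 of 23019 with any value, all 9 members among them). limma 3.58.1 in R 4.3.3 fitted a mean for each of the 12 groups to all 62 libraries, with a mean-variance trend and 50 residual degrees of freedom. A gene was called where its p, adjusted by Benjamini and Hochberg's method within 1 of the 16 contrasts, was under 0.05. Folds are ratios of mean TPM. Size factors were medians of ratios over 13867 genes above 0 in every library. Ratios were tested with exact two-sided permutation tests in scipy 1.17.1, adjusted over 20 comparisons. Members, lists and tests were chosen with earlier results of these data known. Beside the members, the text names at most 4 genes of each list, those called at 8 weeks with the lowest adjusted p. It also names the 5 genes most like Trim72 on each scale, and says where others were added. Promoter windows are from RefSeq (GRCm38.p6), positions from GENCODE M21 (GRCm38, the assembly of mm10). The file lists cavins under older symbols (Ptrf, Sdpr, Prkcdbp, Murc). The model was tested on simulated data. The settings varied were the pseudocount (0.1), the filter (none), the rescaling, TPM without the 37 mitochondrially encoded genes, a fit of the compared weeks, a spread estimated per treatment and a replicate block. Libraries were left out singly, as were the 3 at the end of the first principal component together. The 3 with over 100 TPM of albumin were also left out. They were all mock libraries, replicates 1 and 2 of 2 weeks and replicate 3 of 4 weeks. Rescaling without the 3 at the end of the first principal component was added after seeing the data.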

Additional observations from a re-analysis of the deposited data

Results flagged for a closer look

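Of 108 sets of libraries, each 1 gene in 1 group, 9 held a library set apart from the rest by Dixon's test on the log2 scale, and chance marks about 1 in 20. Cav3 stood at 61.1 TPM in mock replicate 5 at 6 weeks, above 49.3 to 52.3 TPM in the other 4, and at 40.8 TPM in CAC replicate 1 at 6 weeks, below 64.5 to 75.5 TPM. Anxa1 stood at 10.8 TPM in CAC replicate 3 at 8 weeks, below 16.1 to 21.1 TPM, and Anxa2 at 18.9 TPM in mock replicate 2 at 8 weeks, above 11.5 to 13.3 TPM. Anxa6 stood at 57.5 TPM in mock replicate 5 at 2 weeks, below 94.8 to 114 TPM, and this library had a size factor of 0.773. Ahnak was set apart in 3 groups, at 95.6 TPM in mock replicate 2 at 2 weeks (others 27.0 to 39.0 TPM), at 65.7 TPM in CAC replicate 4 at 2 weeks (others 41.1 to 43.7 TPM) and at 19.8 TPM in NCAC replicate 4 at 6 weeks (others 33.6 to 41.0 TPM). That NCAC library had the lowest size factor of all, 0.61. Myof stood at 2.83 TPM in CAC replicate 5 at 2 weeks, above 1.34 to 1.68 TPM. Between 4 and 8 weeks the difference of CAC from mock muscle itself differed for Anxa1 (by 0.96, adjusted p = 0.0107 by limma) and for Anxa2 (by 0.72, adjusted p = 0.0245).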

How the results depend on the processing

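TPM keeps no depth, so the spread between libraries is the only error known here, and composition shifts as large as many of the changes limit the later weeks. Rescaling moved the members called higher at 6 weeks from 7 to 4 against mock and to 4 against NCAC muscle, and those with a larger difference at 8 than at 4 weeks from 2 to 0, and these counts recurred without the 3 outlying libraries (4, 4 and 0). That last count was also 0 without the mitochondrially encoded genes, and ranged from 0 to 5 with single libraries left out. Against mock at 4 weeks the members called ranged from 1 to 2 on leaving out libraries, and against NCAC muscle 5 were called without the 3 outlying libraries. Of the 9 lists at 8 weeks, 20 genes were higher and 11 lower rescaled, 16 and 8 rescaled without the 3 libraries, 5 lower without mitochondrially encoded genes and 1 lower with no filter, and 0 to 1 lower on leaving out libraries.

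Signs changed as follows, with called values named as such. Rescaling gave -0.074 for Anxa2 at 2 weeks, -0.076 for Anxa2 and -0.063 for Myof at 4 weeks against mock (the same values without the 3 libraries), -0.21 for Cav3 and -0.099 for Anxa5 at 6 weeks, and -0.39 and -0.29 at 8 weeks. Against NCAC muscle it gave -0.40 and -0.18 at 6 weeks and -0.36 and -0.25 at 8 weeks for Cav3 and Anxa5, and for the change from 4 to 8 weeks -0.014 for Trim72 and -0.026 for Dysf. Rescaled without the 3 libraries, Cav3 and Anxa5 gave -0.013 and -0.059 against mock and -0.21 and -0.14 against NCAC muscle at 6 weeks, and Anxa5 -0.14 and -0.10 at 8 weeks. Without the 3 libraries alone, the change of Cav3 from 4 to 8 weeks was 0.066. The TPM without mitochondrially encoded genes gave -0.056 (2 weeks) and -0.044 (4 weeks) for Anxa2, -0.045 for Myof at 4 weeks, -0.16 (6 weeks) and -0.0999 (8 weeks) for Cav3 against NCAC, and -0.16 for Cav3 and -0.065 for Anxa5 at 8 weeks against mock muscle. Without libraries rich in albumin, Anxa1 gave -0.028, Anxa2 -0.084 and Anxa5 0.014 at 2 weeks, and Anxa1 0.033 at 4 weeks. At 8 weeks the called Capn1, Stx4a and Vamp3 turned to -0.20, -0.10 and -0.19 rescaled and to -0.13, -0.053 and -0.12 without the 3 libraries too, where Insr gave -0.018. Of these, Vamp3 rescaled was called lower. The cause was not tested.

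With single libraries left out, the 2-week differences ranged from -0.051 to 0.18 for Anxa2 and from -0.19 to 0.088 for Anxa5, and the 4-week ones from -0.14 to 0.25 for Anxa1, from -0.026 to 0.20 for Anxa2 and from -0.049 to 0.11 for Myof. The Trim72 to Dysf ratio differences ranged from 0.40 to 0.56 (4 weeks) and 0.29 to 0.48 (6 weeks) against mock, and 0.39 to 0.56 against NCAC muscle at 6 weeks. Those of Anxa2 to Anxa6 at 8 weeks ranged from -0.42 to -0.26 and from -0.33 to -0.16. With a pseudocount of 0.1 the Trim72 to Dysf differences from mock of 0.47 (4 weeks) and 0.38 (6 weeks) were no longer called. The replicate block changed no call (Cav3 at 8 weeks 0.20 instead of 0.13), with CAC replicates 6 and 7 of 8 weeks taken up by their own blocks. The numbers do not pair the libraries: over 60 pairs with the same number the median correlation of deviations was -0.03, against 0.01 over 260 other pairs.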
